A study of Mus musculus with 7 samples.

Results

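The organic anion and drug efflux transporters of the hepatocyte were followed as 10 genes out of 16819 with a named probe set on the array. The 10 genes were picked by symbol, with earlier results of these data known. They comprise 4 uptake carriers of the blood-facing (sinusoidal) membrane, Slco1a1, Slco1a4, Slco1b2 and Slco2b1, and 4 efflux pumps of the bile canaliculus, Abcc2, Abcb4, Abcb1a and Abcg2. The last 2, Abcc3 and Abcc4, pump back towards the blood. Each of the 10 had 1 probe set, and none was lost to a filter. Whole liver RNA came from male Dicer1 fl/fl mice of mixed 129S4 and C57BL/6 background, with 1 array per liver sample. AAV8-Ttr-Cre livers were taken 2 weeks (2 arrays) and 4 weeks (2 arrays) after injection, and control livers at 0 weeks (3 arrays). The virus was given at 8 to 10 weeks of age, and its Cre recombinase, driven by a transthyretin promoter, deletes the floxed Dicer1 gene in hepatocytes. The control mice carried the same floxed alleles, and every mouse was fasted for 4 hours before the liver was taken. The design has no arm with a Cre-free virus and its controls date from 0 weeks alone, so Dicer1 loss, the virus, Cre and the elapsed weeks cannot be told apart. Cells of the liver other than hepatocytes are not targeted by that promoter.

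Hepatocytes clear bilirubin, bile acids, hormones and drugs from blood by carrying them in through organic anion transporting polypeptides (the Slco genes), conjugating them, and exporting them through ATP-driven pumps (the Abc genes). Pumps on the canalicular membrane send the products into bile, while Abcc3 and Abcc4 return them to the blood and are known to be induced when bile flow is blocked. Nuclear receptors that sense bile acids and foreign compounds, and the antioxidant regulator Nfe2l2, are known to control several of these genes.

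After Cre, Abcg2, the canalicular pump of sulfated conjugates, urate and porphyrins, was 1.28-fold lower than in control liver. Abcb4, which moves phosphatidylcholine into bile, was 1.32-fold higher, short of the threshold. Slco1a1, an uptake carrier that is more abundant in male than in female mouse liver, was 2.00-fold lower with a wide error, also short of the threshold. These 3 genes were the ones whose 4 arrays after Cre all lay on one side of the 3 control arrays. The same was so for 12.2% of all genes (below) and 12.9% (above), so it is not particular to the 3 genes. To show the sequence in front of them, RefSeq bases (GRCm38.p6) upstream of their outermost start in the RefSeq promoter table are printed 5′ to 3′, and each stretch stops where the RefSeq gene record begins. For Slco1a1 that is the start itself, whereas the gene records of Abcg2 and Abcb4 begin 42 and 107 bases before the start in the promoter table. Capitals mark the nuclear receptor motif AGGTCA, which reads TGACCT where it lies on the other strand, and the Abcb4 stretch holds none.
Abcg2: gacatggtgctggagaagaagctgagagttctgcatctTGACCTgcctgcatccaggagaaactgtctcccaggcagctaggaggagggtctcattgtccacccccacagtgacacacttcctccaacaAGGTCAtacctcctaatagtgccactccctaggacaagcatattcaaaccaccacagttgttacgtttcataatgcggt
Abcb4: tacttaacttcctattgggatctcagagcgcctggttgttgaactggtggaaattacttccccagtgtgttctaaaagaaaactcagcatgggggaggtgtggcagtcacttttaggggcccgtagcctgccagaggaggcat
Slco1a1: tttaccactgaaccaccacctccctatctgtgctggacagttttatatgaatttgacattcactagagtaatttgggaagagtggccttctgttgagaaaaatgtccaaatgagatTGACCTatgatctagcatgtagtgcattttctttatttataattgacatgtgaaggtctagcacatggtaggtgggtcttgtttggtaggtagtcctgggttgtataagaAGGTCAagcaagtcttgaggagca

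The stretches lie at chr6:58584283-58584490 (+ strand, 208 bases) for Abcg2, at chr5:8893471-8893613 (+ strand, 143 bases) for Abcb4 and at chr6:141946963-141947212 (- strand, 250 bases) for Slco1a1. Abcg2 has 3 starts in the RefSeq table, and the array does not show which one the liver used. The windows in front of the starts of 9 of the 10 genes, all but Abcc3, were searched over 250 bases on both strands. The motifs were AGGTCA, the inverted repeat of that motif with 1 base between the copies, which the bile acid receptor binds, the antioxidant response core TGACNNNGC, which can overlap AGGTCA, and the dioxin response core GCGTG. Distances are counted from the start in the promoter table. AGGTCA was found in front of 4 of the 9 genes searched and in 14% of all 32851 windows of this length. These are unlike units, since a gene with several starts was counted if any of its windows held the motif. The 2 figures are therefore not a measure of enrichment. Abcg2 had 2 matches in front of its first start, with first bases 212 and 121 bases before it, and 1 in front of start 3, at 197 bases. Slco1a1 had 2 matches, at 134 and 24 bases. Slco1b2 and Abcc2, whose groups overlapped, had 1 match each, at 81 and 49 bases. In front of Abcb4 the one match was GCGTG, 6 bases before the start and beyond the printed stretch, a motif present in 28.2% of all windows. Abcc2 and both starts of Abcc4 held TGACNNNGC (10.2% of all windows), at 98 bases and at 25 and 23 bases before the start. The first start of Abcc4 also had GCGTG, at 101 and 94 bases. The inverted repeat was in none of the windows of these genes and in 0.00609% of all windows.

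The values are log2 signals, so 1 unit is a factor of 2. The deleted gene was checked first: Dicer1 read 8.03 and 7.79 at 2 weeks and 7.97 and 8.05 at 4 weeks after Cre, against 8.73, 8.71 and 8.58 in the controls. The median signal of all genes was 7.23 to 7.26 on the 7 arrays. On the first principal component, which held 62% of the variance, 2 week replicate 1 lay at 6.56 and the other 3 arrays after Cre between 18.4 and 24.3, against -23.8 to -22.4 for the controls. Genes were compared with limma in 1 model of the 3 groups, and changed means a p below 0.05 after Benjamini-Hochberg adjustment over all 16819 genes. "After Cre" is the mean of the 2 week and 4 week groups. The arrays are labelled as biological replicates, and their small number limits the precision.

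Over all 4 arrays after Cre against control, 1 of the 10 transporters was lower and 0 were higher. In the same comparison 6.12% of all genes were lower and 6.79% higher, so 1 in 10 is near the background. At an unadjusted p under 0.05 there were 2, Abcg2 and Abcb4, where 27.4% of all genes were, so this count is not above the background. At 2 weeks 0 of 10 passed by limma, where 3.46% of all genes were higher and 2.47% lower. At 4 weeks 0 of 10 passed, where 5.15% were higher and 4.62% lower. At both times Abcg2 and Abcb4 were the 2 with an unadjusted p under 0.05, beside 23% of all genes at 2 weeks and 24.8% at 4 weeks. Between 4 and 2 weeks 0 of 10 passed, and 0.00595% of all genes did. At an unadjusted p under 0.05 there were 0 of the 10 and 7.43% of all genes. The median log2 fold change after Cre was -0.04 over the 10 genes and 0.00 over all genes. All 4 arrays after Cre lay below all controls for 2 of the 10 (12.2% of all genes) and above them for 1 (12.9% of all genes).

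**Figure D1:**
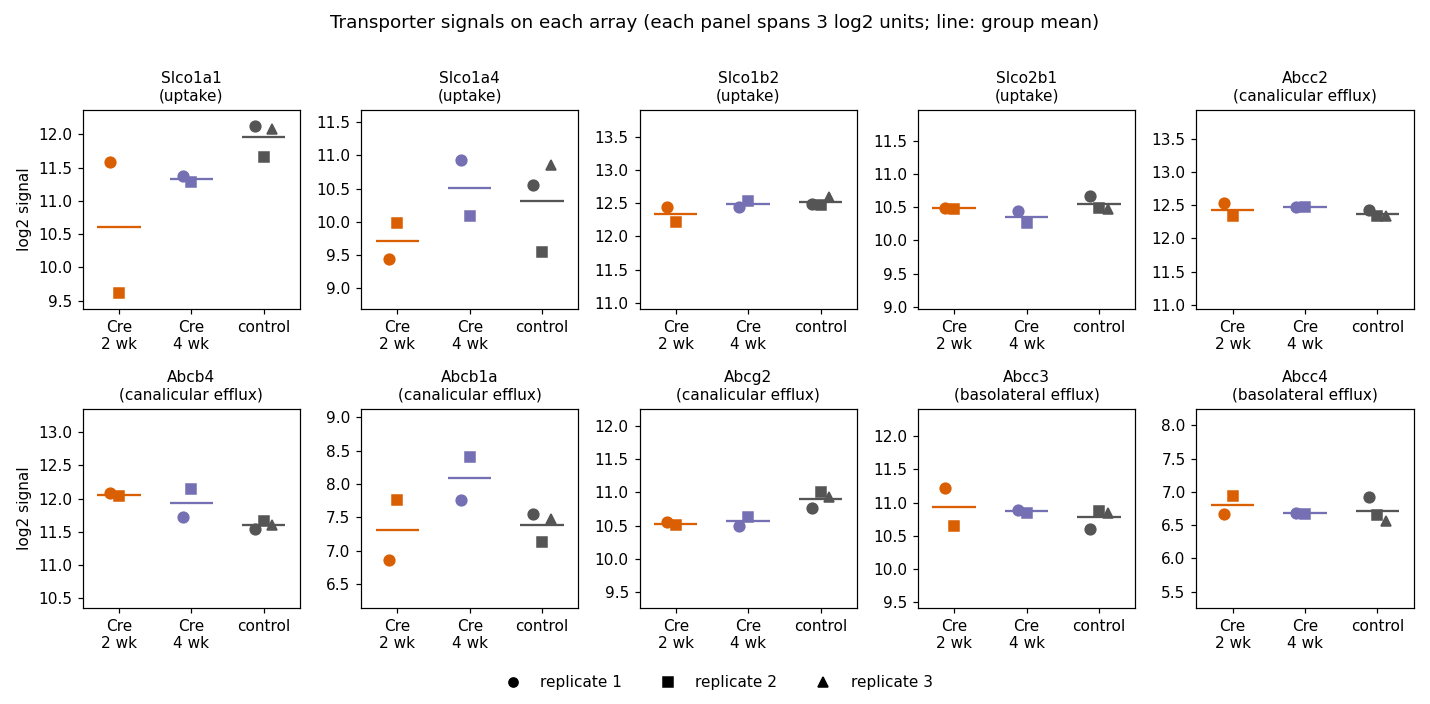
Log2 signal of the 10 transporters on each of the 7 arrays, by group, with replicates as symbols, group means as lines and the same span of 3 log2 units in each panel. Abcg2 after Cre lies at 10.50 to 10.63, below the controls at 10.76 to 11.01, and Slco1a1 at 2 weeks is split between 11.59 and 9.61.

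Among the canalicular pumps, Abcg2 read 10.55 and 10.51 at 2 weeks and 10.50 and 10.63 at 4 weeks after Cre, against 10.76, 11.01 and 10.93 in the controls. The 4 arrays after Cre were within 0.13 of each other, and the groups did not overlap. The log2 fold change of Abcg2 after Cre was -0.35 (SE 0.07, 95% interval -0.53 to -0.18, limma adjusted p = 0.031, n = 4 and 3). It was -0.37 at 2 weeks (adjusted p = 0.0643) and -0.33 at 4 weeks (adjusted p = 0.0679), both short of the threshold. The call after Cre was lost in 6 of the 7 fits that left out 1 array, all but the one without control replicate 1. The adjusted p in those 7 fits ran from 0.0362 to 0.117, while the fold change stayed between -0.42 and -0.30. The 3 genes with the profile most like that of Abcg2 over the 7 arrays were Bri3 (Pearson r = 0.989), Uprt (0.986) and Rsrc1 (0.982), a likeness that the shared difference between groups feeds.

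Abcb4 read 12.08 and 12.04 at 2 weeks and 11.73 and 12.15 at 4 weeks after Cre, against 11.55, 11.66 and 11.61 in the controls. The groups did not overlap, although 4 week replicate 1 was close to the highest control. The log2 fold change after Cre was 0.40 (SE 0.10, 95% interval 0.14 to 0.65, adjusted p = 0.063). In the 7 fits that left out 1 array it lay between 0.29 and 0.50. The ends came without 4 week replicate 2 (0.29) and without 4 week replicate 1 (0.50). It missed the threshold in every fit that kept both 4 week arrays. The 4 week arrays differed by 0.42, against 0.04 for the 2 week arrays. A fit with 1 array at 4 weeks loses that gap from its spread, so its p-value is no support for a change.

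Abcc2 exports conjugated bilirubin and glutathione conjugates into bile. It read 12.54 and 12.33 at 2 weeks and 12.48 and 12.47 at 4 weeks after Cre, against 12.42, 12.33 and 12.34 in the controls. Its groups overlapped, and the log2 fold change after Cre of 0.10 had an interval of -0.06 to 0.25, the narrowest among the 10 genes.

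Abcb1a encodes a P-glycoprotein, a pump of many lipophilic drugs that is also known from the vessel wall. It read 6.85 and 7.76 at 2 weeks and 7.76 and 8.41 at 4 weeks after Cre, against 7.55, 7.13 and 7.47 in the controls. The 2 week arrays lay on either side of the controls and the 4 week arrays above them. The log2 fold change was -0.08 at 2 weeks (SE 0.33, adjusted p = 0.919) and 0.70 at 4 weeks (SE 0.33, adjusted p = 0.264), and the difference between the times was 0.78 (adjusted p = 0.723). The closely related gene Abcb1b, picked for that likeness after its values were seen, read 7.57 and 6.56 at 2 weeks and 6.33 and 7.62 at 4 weeks, against 6.84, 6.81 and 6.77. Any probes shared between these genes would mix their signals, and the probe sequences were not used here.

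Of the uptake carriers, Slco1a1 read 11.59 and 9.61 at 2 weeks and 11.37 and 11.28 at 4 weeks after Cre, against 12.13, 11.66 and 12.08 in the controls. All 4 arrays were below all controls, and 2 week replicate 2 was 1.98 below replicate 1. The log2 fold change after Cre was -1.0 (SE 0.47, 95% interval -2.15 to 0.16, adjusted p = 0.242, limma). At 2 weeks it was -1.36 (SE 0.56, adjusted p = 0.224), and at 4 weeks -0.63 (SE 0.56, adjusted p = 0.551). Leaving out 2 week replicate 2 gave -0.50 after Cre (adjusted p = 0.138), and leaving out 2 week replicate 1 gave -1.49 (adjusted p = 0.0111), the 1 fit of 7 that passed. At 2 weeks these fits gave -0.37 (adjusted p = 0.449) and -2.35 (adjusted p = 0.014), each resting on 1 array that is assumed to vary like the other groups.

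The same array, 2 week replicate 2, also had the lowest mean over other male-biased genes. The mean log2 signal of 11 measured male-biased liver genes of 13 listed was 11.03 and 9.93 at 2 weeks (replicates 1 and 2) and 10.58 and 10.62 at 4 weeks, against 11.40 to 11.46 in the controls. Of these, 3 fell and 0 rose after Cre (median log2 fold change -0.63). Moxd1 fell the most (-4.83) and weighs on the means after Cre. Of the strongest signals, Cyp7b1 was at -0.79 and Cyp2d9 at -0.05, and neither passed. The 2 week replicates 1 and 2 differed most in Hsd3b5 (10.50 and 5.90) and Elovl3 (12.52 and 8.69), which weigh on these means. Ugt2b38 (10.43 and 10.47) and Selenbp2 (10.54 and 11.25) were higher in replicate 2, and the rest were lower. For 9 measured female-biased genes of 14 listed, the means were 6.74 and 8.14 at 2 weeks and 8.40 and 7.71 at 4 weeks, against 6.10 to 6.30. Of these genes 2 rose and 0 fell after Cre (median 1.21). Cyp2b9 rose the most (5.70) and weighs on these means, while Fmo2 (-0.05) and Cux2 (-0.08) were the 2 negative estimates. Beside the counts of changed genes, 6.12% of all genes were lower and 6.79% higher after Cre. The part of the sex-biased genes in the Slco1a1 values was not tested.

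Slco1a4 is more abundant in female than in male mouse liver. It read 9.44 and 9.98 at 2 weeks and 10.93 and 10.09 at 4 weeks after Cre, against 10.55, 9.55 and 10.85 in the controls. The controls alone spanned nearly the whole range, and the log2 fold change after Cre was -0.21 (95% interval -1.15 to 0.74, adjusted p = 0.771). Slco1a1 and Slco1a4 belong to 1 family of similar sequence, and probe sharing between them was not tested.

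Slco1b2, the main carrier of bilirubin and many drugs into mouse hepatocytes, read 12.45 and 12.21 at 2 weeks and 12.45 and 12.53 at 4 weeks after Cre, against 12.49, 12.47 and 12.60 in the controls. Its log2 fold change after Cre was -0.11 (95% interval -0.29 to 0.07, adjusted p = 0.393). Slco2b1, a carrier of sulfated steroids and statins, read 10.49 and 10.48 at 2 weeks and 10.44 and 10.26 at 4 weeks, against 10.67, 10.49 and 10.48. Its log2 fold change was -0.13 (95% interval -0.30 to 0.05, adjusted p = 0.319). All 4 uptake carriers thus had a negative estimate after Cre (median -0.17), as had 8184 of all 16819 genes. At 4 weeks 3 of them were negative and 1 was positive, Slco1a4 at 0.19. The threshold was passed by 0 of the 4 after Cre (0 also at an unadjusted p under 0.05), so these signs are no evidence of a shared fall.

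Both basolateral pumps overlapped between groups. Abcc3, which exports glucuronides to the blood, read 11.22 and 10.65 at 2 weeks and 10.89 and 10.85 at 4 weeks after Cre, against 10.60, 10.88 and 10.85 in the controls. Its log2 fold change after Cre was 0.12 (95% interval -0.25 to 0.50, adjusted p = 0.645). Abcc4, which exports bile acids and cyclic nucleotides, read 6.67 and 6.94 at 2 weeks and 6.69 and 6.67 at 4 weeks, against 6.93, 6.65 and 6.56. Its log2 fold change was 0.03 (95% interval -0.25 to 0.30, adjusted p = 0.901).

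**Figure D2:**
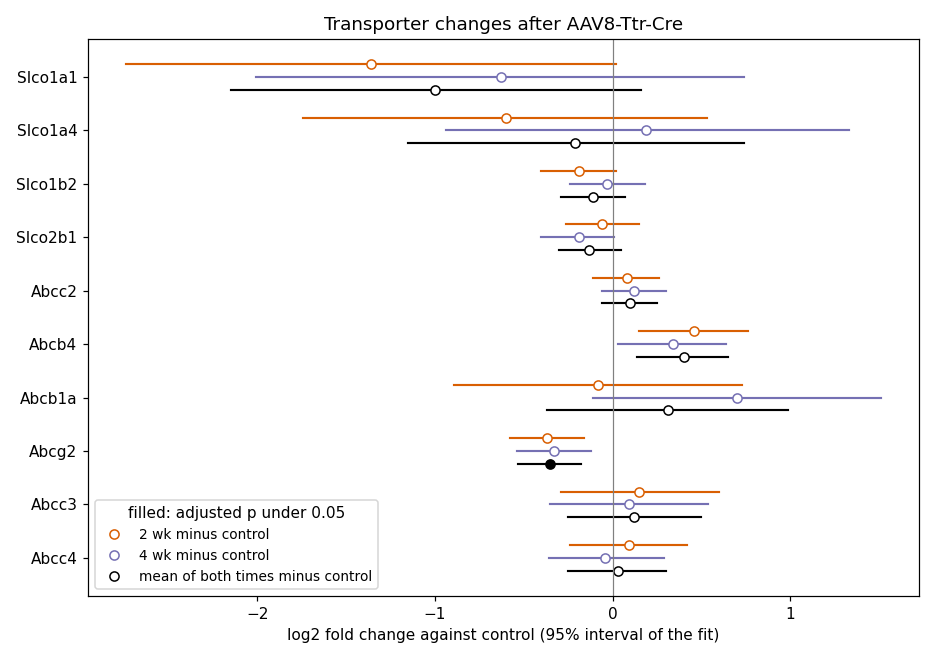
Log2 fold change against control of each transporter at 2 weeks, at 4 weeks and for the mean of both times, with 95% intervals of the limma fit. Only the point of Abcg2 after Cre (-0.35) is filled, which marks an adjusted p below 0.05. The intervals are not adjusted, and those of Abcg2 and Abcb4 exclude 0 at both times and for their mean. The intervals of Slco1a1, Slco1a4 and Abcb1a are the widest.

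The spread between arrays of a group differed greatly among the 10 genes. The residual SD was 0.73 for Slco1a1, 0.60 for Slco1a4 and 0.42 for Abcb1a, above those of 99.7%, 99.5% and 98.8% of all genes, where the median was 0.09. It was 0.10 for Abcg2, Slco1b2 and Slco2b1 and 0.08 for Abcc2. The controls carried much of this spread for Slco1a4 (control SD 0.68). For Slco1a1 and Abcb1a the control SD was smaller (0.26 and 0.22), and the 2 week arrays lay 1.98 and 0.91 apart. Control replicate 2 was the lowest control for 5 of the 10 genes and the highest for 3, and control replicate 1 the lowest for 3 and the highest for 5. Such ranks do not measure the size of the spread.

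Cell type markers were read on the same arrays, where 6.79% of all genes were higher and 6.12% lower after Cre. The hepatocyte markers (7 of 8 measured) summed to 111783 to 112354 linear signal units at 2 weeks and 110961 to 114000 at 4 weeks after Cre, against 118251 to 121395 in the controls. Of them 1 fell after Cre, the tyrosine aminotransferase gene Tat (log2 fold change -0.62). Its strong signal (mean 14.12 in the controls and 13.50 after Cre) weighs on this sum. The median log2 fold change of the 7 markers was -0.01, and albumin (Alb) was at 0.00 (adjusted p = 0.966). The endothelial markers (8 of 8) summed to 5059 to 6058 at 2 weeks and 6581 to 7488 at 4 weeks, against 5764 to 5846, and 0 passed after Cre (0 at an unadjusted p under 0.05). Clec4g passed at 4 weeks (log2 fold change 0.60, limma adjusted p = 0.0438). Its strong signal (mean 10.96 in the controls and 11.56 at 4 weeks) weighs on the 4 week sum, where the median log2 fold change of the 8 was 0.07. The Kupffer cell markers (7 of 7) overlapped between groups, at 2553 to 3434 and 2585 to 3466 against 2603 to 3163. The stellate cell markers (7 of 7) summed to 5199 to 5601 and 4921 to 5466 against 4328 to 4593, with 2 higher, Pdgfrb and Hgf. Dcn, which did not pass (log2 fold change 0.25, limma adjusted p = 0.159), has the strongest signal of the 7 and weighs on this sum. The median log2 fold change of the 7 was 0.24. The bile duct markers (6 of 8) summed to 617 to 694 and 649 to 677 against 571 to 602, with 1 higher, Sox9 (log2 fold change 0.37). Sox9 has the strongest signal of the 6 (mean 7.68 in the controls and 8.05 after Cre) and weighs on this sum. The median log2 fold change of the 6 was 0.07. The leukocyte markers (5 of 6) summed to 365 to 463 and 383 to 393 against 367 to 378. The erythroid gene Alas2 (1 of 3) was at 1539 to 2101 and 1440 to 2284 against 1796 to 1845. These arrays carry no detection call and their lowest log2 value was 3.15, so an absent marker cannot be recognised from its value. The part of cell composition in the transporter values was not tested. In whole liver, fewer hepatocytes and less RNA per hepatocyte cannot be told apart.

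Other carriers were read for comparison. Of 14 genes listed as other efflux carriers, 3 were higher after Cre and 0 lower, where 6.79% of all genes were higher and 6.12% lower. The median log2 fold change of the 14 was 0.24 beside 0.00 for all genes. Abcb11, the bile salt export pump, read 12.72 and 12.84 at 2 weeks and 12.92 and 13.14 at 4 weeks, against 12.19, 11.91 and 12.26 in the controls. It rose 1.73-fold after Cre (log2 0.79, SE 0.10, adjusted p = 0.0112). The aminophospholipid flippase Atp8b1, which maintains the canalicular membrane, read 10.14 and 10.02 at 2 weeks and 10.53 and 10.14 at 4 weeks, against 9.37, 9.35 and 9.50. It rose 1.74-fold (adjusted p = 0.0109), and Abcc10 rose by a log2 fold change of 0.51 (adjusted p = 0.0444). The sterol pump gene Abcg5 was at 0.48 (adjusted p = 0.051) and the cation exporter Slc47a1 at 0.07 (adjusted p = 0.587).

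Of the 9 measured other uptake carriers of 13 listed, 1 rose and 1 fell after Cre (median 0.02), beside 6.79% and 6.12% of all genes. The organic anion carrier Slc22a7 rose 1.72-fold (log2 0.78, SE 0.19, adjusted p = 0.0489), and the bile acid carrier Slc10a2 fell 9.99-fold (adjusted p = 0.00692). By time, Slc10a2 was 3.30-fold lower at 2 weeks (limma adjusted p = 0.0713, short of the threshold) and 30.25-fold lower at 4 weeks (adjusted p = 0.00772). The difference between the times did not pass (adjusted p = 0.27). Slc10a1, the main sodium-dependent bile acid carrier of hepatocytes, was at -0.14 (adjusted p = 0.118) and the nucleoside carrier Slc29a1 at 0.02 (adjusted p = 0.898).

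Of 16 measured regulators, 4 rose and 1 fell after Cre (median -0.01), beside 6.79% of all genes higher and 6.12% lower. Nfe2l2, the antioxidant regulator also known as Nrf2, rose 2.12-fold (adjusted p = 0.00615). Nr0b2, a repressor that bile acid sensing induces, rose 2.89-fold (adjusted p = 0.0166). The dioxin receptor Ahr (log2 fold change 0.52, adjusted p = 0.0249) and the liver factor Foxa2 (0.82, adjusted p = 0.0294) rose, and the oxysterol receptor Nr1h3 fell by 0.29 (adjusted p = 0.0264). The drug-sensing receptor Nr1i3 was at 0.02 (adjusted p = 0.955) and Hnf4a at 0.01 (adjusted p = 0.902). Of 11 apical membrane and scaffold genes, 3 rose and 1 fell (median 0.14), beside the same shares of all genes. The motor gene Myo5b (0.44, adjusted p = 0.0144), the scaffold Pdzk1 (0.38, adjusted p = 0.0154) and Ceacam1 (0.25, adjusted p = 0.02) rose, and the scaffold Slc9a3r1 fell by 0.23 (adjusted p = 0.0447). The membrane linker Rdx was at 0.20 (adjusted p = 0.067) and the peptidase Dpp4 at 0.17 (adjusted p = 0.137).

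**Figure D3:**
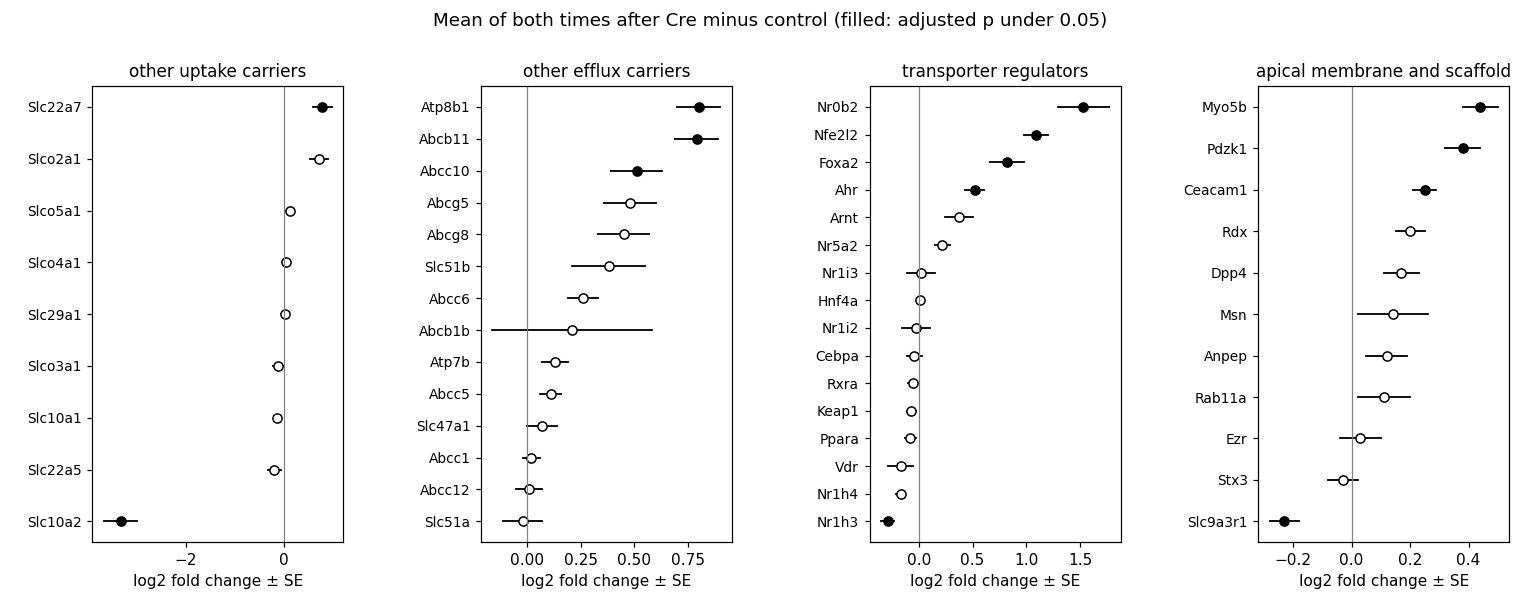
Log2 fold change after Cre against control, with the SE of the fit, for other uptake carriers, other efflux carriers, transporter regulators, and apical membrane and scaffold genes, each panel on its own scale. Filled points passed the threshold. Among the genes listed as other efflux carriers, Atp8b1, Abcb11 and Abcc10 lie to the right of 0 and none lies filled to the left.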

How the data were processed

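Expression was measured in whole mouse liver on 7 Affymetrix arrays (whole-transcript sense target labelling, per the labels' protocols). The authors deposited a log2 signal for each probe set on each array. That these are log2 values was judged from their span of 3.15 to 14.7. The submitters' processing notes name GCOS 1.4. Summarisation, background correction and normalization are, in the sources used here, not given. A normalization that equalises arrays would hide a shift shared by all genes. In 58.4% of the genes 2 or more arrays held exactly the same value (3 of the 10 transporters), which can lower their estimated spread.

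Of 21093 probe sets, 17709 had 1 gene symbol in the platform annotation, 187 several and 3197 none. By gene number, 17648 matched a RefSeq table (GRCm38.p6), which changed 0 symbols. The probe set with the highest mean was kept for each of 16819 genes. The log2 values were fitted as deposited with limma 3.58.1 in R 4.3.3 (lmFit and eBayes, two-sided, 4 residual and 1.69 prior degrees of freedom). The steps were tested on simulated data. From the other carrier, regulator, membrane and target gene lists, up to 4 passing genes (lowest adjusted p first) and up to 2 others (highest mean first) could be named. Foxa2, the fifth regulator that passed, Abcb1b and the cell type markers singled out (Tat, Alb, Clec4g, Pdgfrb, Hgf, Dcn, Sox9 and Alas2) were named outside this rule, after their values were seen. The same holds for the male-biased genes Hsd3b5, Elovl3, Ugt2b38 and Selenbp2. The transporters and lists were chosen with earlier results of these data known. Replicate numbers are shared between groups but nothing in the labels ties them to each other.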

Additional observations from a re-analysis of the deposited data

How the results depend on the processing

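The comparisons were repeated under 16 alternatives. At 2 weeks the count of changed transporters, 0 as reported, was 1 with quantile normalization (Abcg2), 2 with only genes above the median mean level (Abcb4 and Abcg2) and 1 when only the compared groups were fitted (Abcb4). At 4 weeks it was 1 instead of 0 with quantile normalization and with genes above the median (Abcg2 in both). After Cre the count, 1 as reported, was 2 with median-centred arrays, with genes above the median and with only the compared groups (Abcb4 added in each). The cause was not tested. Leaving out each array in turn gave counts of 0 to 1 at 2 weeks, 0 to 0 at 4 weeks, 0 to 0 between the times and 0 to 1 after Cre. Without 2 week replicate 1 the changed gene was Slco1a1, and without either 4 week array it was Abcb4. Each of these fits leaves 1 array in a group, so the gap between the 2 arrays of that group no longer counts in the spread.

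With the replicate number as a block (replicate block), 0 transporters passed after Cre, and Abcg2 was at -0.34 (adjusted p = 0.129). That fit called 5 genes of all 16819 after Cre, against 2171 without the block, and 0 at 2 weeks and 2 at 4 weeks. Deviations of same-numbered arrays from their group means correlated at 0.11 between 2 and 4 weeks and at -0.07 to 0.01 with the controls, so the numbers were not taken as pairs. For single transporters, 15 fits moved an estimate past the threshold, 7 moved one below it (all Abcg2 after Cre), and no called estimate changed sign.

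The count of all changed genes moved by more than 1.5 times where an array was left out: at 2 weeks 41 to 2168 against 997, at 4 weeks 63 to 1948 against 1643, and after Cre 570 to 2788 against 2171. It moved so too at 2 weeks with only genes above the median (1720) and with only the compared groups (276). Abcc4 lies below the median level and has no value under the filter. The small groups limit precision, and signal over background was not analysed here.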

Other observations

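Drug metabolism genes known to be induced through the receptors Nr1i3 and Nr1i2 gave 0 changed of 10 measured after Cre by limma. At an unadjusted p under 0.05 there were 0 of the 10, beside 27.4% of all genes. Their median log2 fold change was 0.01, but the estimates ran from -1.22 to 0.43, so the lack of calls does not show that all 10 were unmoved. Among them Cyp3a11, a major drug-oxidising enzyme, was at 0.20 (adjusted p = 0.198) and the retinal dehydrogenase Aldh1a1 at -0.02 (adjusted p = 0.837). After Cre 6.79% of all genes were higher and 6.12% lower. Of 12 measured genes known to be induced through Nfe2l2, 2 rose and 0 fell (median 0.11). These were both subunits of the enzyme that starts glutathione synthesis, Gclc (log2 fold change 0.95, SE 0.20, adjusted p = 0.0365) and Gclm (0.41, SE 0.09, adjusted p = 0.0391), while the epoxide hydrolase Ephx1 was at 0.32 (adjusted p = 0.0663) and the glutathione transferase Gstm1 at 0.05 (adjusted p = 0.732).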
